A study of Homo sapiens with 6 samples.

Results

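RNA levels of 9 genes of HLA class I antigen presentation were measured in PANC-1, an established cell line from a human pancreatic ductal adenocarcinoma, here without any transgene (wild type). The genes are HLA-B, HLA-C, HLA-E, HLA-F, B2M, TAP1, TAP2, TAPBP and NLRC5, and they were taken by name from the 58735 gene rows of the count table. The cells were given conditioned medium (CM) in which macrophages and other PANC-1 cells had been co-cultured directly at 1:1. In the control group, CM-Vector, the co-cultured PANC-1 cells carried an empty vector. In the other group, CM-MLKL, they overexpressed MLKL, the pseudokinase that ruptures the plasma membrane in necroptosis. The labels give 3 libraries per group. The design text of the series gives 72 h as the time of treatment, whereas the study's methods give 72 h as the time of the co-culture. All treated cells were wild type, so neither group overexpressed MLKL itself, and both media came from cultures that held macrophages. The methods describe macrophages made from the THP-1 monocytic line, and a centrifugal concentration step for the medium of MLKL co-cultures; whether the vector medium was concentrated is not given in the sources used here, so concentration and MLKL cannot be told apart. The results hold for a single cell line.

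Class I molecules display peptides from inside the cell to CD8+ T cells. The proteasome cuts proteins into peptides, the TAP1-TAP2 transporter moves the peptides into the endoplasmic reticulum, and tapasin (TAPBP) holds the transporter and the empty class I molecule together while a peptide is loaded. The class I molecule itself is a heavy chain paired with beta-2-microglobulin (B2M), and many of these genes share interferon-responsive promoter elements and the transactivator NLRC5. In pancreatic carcinoma cells, class I molecules are known to be removed from the surface by autophagy, which RNA levels do not show.

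Library totals ranged from 15838403 to 17885429 counts, and the 9 genes held between 35 counts (NLRC5) and 101463 counts (B2M) in a library. CM-Vector 1 stood apart. Over genes tested, Pearson's r of its log2 CPM (CPM, counts scaled to a common library total after TMM, the trimmed mean of M values) with the other CM-Vector libraries was 0.93 and 0.931, against 0.926 to 0.952 with the CM-MLKL libraries and 0.964 to 0.991 among the other 5 libraries. No libraries agreed within sampling noise, with a chi-square per degree of freedom of at least 10.3 in every pair. The 5 epithelial markers were present, at a summed 4698 to 5525 CPM in CM-Vector and 2853 to 3947 CPM in CM-MLKL. None of them passed the test, and all 5 had negative log2 fold changes. In KRT8, KRT19 and EPCAM (-0.70, -0.79 and -0.89) the groups did not overlap and the unadjusted p by edgeR was under 0.05. In KRT7 and KRT18 (-0.20 and -0.36) the groups overlapped. The summed level of 18 macrophage markers was 20.8 to 26.6 CPM in CM-Vector and 24.4 to 29.7 CPM in CM-MLKL. Of these, PTPRC, MRC1, C1QA and C1QC were at 0 in every library, and 14 markers that were too low to test held 9 to 32 counts per library together. CD14, ITGAM, ITGB2 and LAPTM5 were tested and none passed over the 6 libraries. CD14, ITGAM and ITGB2 had log2 fold changes of -0.88, -1.38 and -0.71, and LAPTM5 had 0.98. In each of these 4 the groups did not overlap, as in 903 genes higher and 773 lower of the 14046 tested. Each of the 4 also had an unadjusted p under 0.05 by edgeR, where 6.22% of all genes did. Without CM-Vector 1, LAPTM5 passed (adjusted p = 0.0401), and the other 3 did not. The part of either marker set in the class I results was not tested.

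RefSeq promoter sequence on GRCh38.p14 was found for 7 of the 9 genes, all but HLA-E and NLRC5. The 250 bases before the start are shown for the heavy chains HLA-B and HLA-C, for their partner B2M and for both subunits of the transporter, because the levels of these 5 genes carry the comparisons between the groups. Sequences run 5′ to 3′ on the gene's strand and capitals mark motif matches. The motifs were GAAANNGAAA and GAANNGAAA, which belong to the interferon-stimulated response element, the NF-kB consensus, TGACGC, the core of the site X2 bound by CREB and ATF factors, and CCAAT, the site of NF-Y. Both strands were read, and the GAA motifs can overlap each other. The starts are those of RefSeq and differ from the gene ends in the GENCODE annotation used below for coordinates. The TAP1 window shown lies wholly inside the gene's span in that annotation, and the other windows shown overlap theirs in part.
HLA-B (chr6:31357180-31357429, minus strand): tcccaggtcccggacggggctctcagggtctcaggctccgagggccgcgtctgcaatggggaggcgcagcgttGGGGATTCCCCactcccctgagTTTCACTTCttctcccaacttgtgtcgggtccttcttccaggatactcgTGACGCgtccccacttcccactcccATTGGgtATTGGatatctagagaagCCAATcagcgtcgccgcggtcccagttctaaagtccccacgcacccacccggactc
HLA-C (chr6:31272093-31272342, minus strand): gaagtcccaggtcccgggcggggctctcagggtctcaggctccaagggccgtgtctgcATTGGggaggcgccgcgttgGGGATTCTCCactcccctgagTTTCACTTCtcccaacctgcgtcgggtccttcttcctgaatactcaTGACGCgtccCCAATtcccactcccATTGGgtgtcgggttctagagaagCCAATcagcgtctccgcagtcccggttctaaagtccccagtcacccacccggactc
B2M (chr15:44711267-44711516, plus strand): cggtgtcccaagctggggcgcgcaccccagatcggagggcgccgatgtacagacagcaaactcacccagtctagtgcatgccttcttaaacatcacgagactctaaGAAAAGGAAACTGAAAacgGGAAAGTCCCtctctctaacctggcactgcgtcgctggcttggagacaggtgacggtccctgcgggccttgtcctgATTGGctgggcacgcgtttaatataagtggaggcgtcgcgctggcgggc
TAP1 (chr6:32853705-32853954, minus strand): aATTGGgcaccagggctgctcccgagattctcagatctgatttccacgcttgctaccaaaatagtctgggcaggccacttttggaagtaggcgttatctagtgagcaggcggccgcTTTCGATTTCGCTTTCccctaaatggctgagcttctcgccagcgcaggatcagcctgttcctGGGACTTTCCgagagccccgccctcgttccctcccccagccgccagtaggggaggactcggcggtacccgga
TAP2 (chr6:32838740-32838989, minus strand): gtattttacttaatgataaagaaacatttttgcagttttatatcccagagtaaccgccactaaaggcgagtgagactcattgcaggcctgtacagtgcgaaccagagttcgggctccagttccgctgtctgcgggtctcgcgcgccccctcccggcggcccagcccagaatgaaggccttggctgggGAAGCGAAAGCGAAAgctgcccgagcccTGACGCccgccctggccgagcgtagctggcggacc

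HLA-B and HLA-C share a run of elements: an NF-kB match, then a GAANNGAAA match read on the opposite strand 155 and 151 bases before the start, then TGACGC at 106 and 105 bases, then CCAAT. HLA-C has a further CCAAT match ahead of this run, at 192 bases. B2M and TAP1 each hold an overlapping pair of GAAANNGAAA matches, at 144 and 138 bases in B2M and at 134 and 128 bases in TAP1, and each holds an NF-kB match. RefSeq lists a further TAP1 start whose window (chr6:32852762-32853011) held no match and is not shown. TAP2 has GAAANNGAAA, GAANNGAAA and TGACGC matches within 63 bases of its start. Of the 7 genes, 5 held GAAANNGAAA, 3 held GAANNGAAA, 5 the NF-kB consensus, 3 TGACGC and 5 CCAAT. Over all 35116 promoter windows of the same length the shares were 3.02%, 6.56%, 9.96%, 7.67% and 32%. All 7 genes held a GAANNGAAA or GAAANNGAAA match, against 9.08% of all windows. However, GAAANNGAAA was added after the shorter motif had been seen to miss 4 of the genes. This count and that of GAAANNGAAA alone therefore follow from the choice and support nothing. A gene was counted if any of its windows matched, whereas the shares are per window. A match is a description and does not show that a factor binds.

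The comparison asked whether medium from macrophages cultured with MLKL-overexpressing tumour cells, in place of vector cells, was accompanied by different class I RNA levels in bystander tumour cells. No difference was detectable for any of the 9 genes with these libraries. HLA-B, HLA-C and TAP1 had the largest differences, at 1.4-fold, 1.35-fold and 1.37-fold higher mean fitted levels with CM-MLKL, and B2M was nearly equal in both groups. By edgeR's quasi-likelihood test, adjusted over all genes by the Benjamini-Hochberg method, 0 of 9 passed in either direction, where 0.513% of the 14046 genes tested did, and 0 of 9 had an unadjusted p under 0.05, where 6.22% of all genes did. DESeq2, which called 1.47% of all genes, and limma-voom also called 0 of 9. The log2 fold change was above 0 for 8 of the 9, and for 6255 of the 14046 genes tested. The 9 genes come from the same libraries and are not separate observations. The median was 0.26 over the 9 genes and -0.0434 over all genes tested. Leaving out CM-Vector 1, which raised the share of genes called to 2.2%, gave 0 of 9 called and a median of 0.16, with 0.0512 over all genes, and leaving out CM-MLKL 2 gave a median of 0.11. The RNA came from bulk cultures, so fewer cells expressing a gene and less RNA per cell cannot be told apart.

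**Figure D1:**
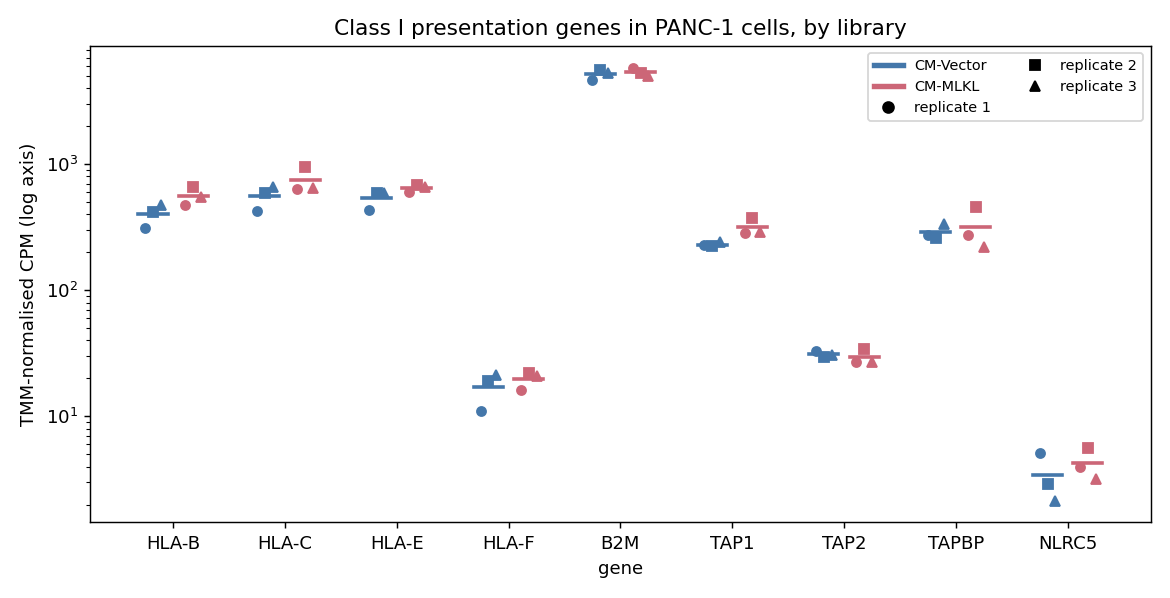
Level of each class I gene as TMM-normalised CPM on a log axis, with blue for CM-Vector, red for CM-MLKL, a symbol per replicate and a bar for the group mean (n = 3). Points of the 2 groups overlap for every gene except HLA-E and TAP1, and B2M lies far above the other 8 genes.

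HLA-B, a classical heavy chain that presents peptides to T cells, lies on chromosome 6 (GRCh38, 31269491 to 31357188, minus strand, in the GENCODE annotation). It stood at 309.1, 417 and 475.8 CPM with CM-Vector and at 474.7, 662.6 and 548.8 CPM with CM-MLKL. The groups overlapped by a narrow margin, between the highest control and the lowest CM-MLKL library. The log2 fold change was 0.49 (SE 0.257, 95% interval -0.0798 to 1.06, edgeR adjusted p = 0.922), so a difference of up to 2.08-fold is within the interval. Without CM-Vector 1 the log2 fold change was 0.36.

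HLA-C, a classical heavy chain that is also a ligand of killer-cell receptors, lies next to HLA-B (chromosome 6, 31268749 to 31272130, minus strand). It stood at 423.3, 585.7 and 653.5 CPM with CM-Vector and at 639.6, 956.1 and 644.3 CPM with CM-MLKL. CM-MLKL 2 lay above every other library and the other CM-MLKL libraries lay below CM-Vector 3. The log2 fold change of 0.43 (95% interval -0.17 to 1.03) became 0.21 without CM-MLKL 2. HLA-B and HLA-C kept a similar proportion in most libraries. Their count ratio was 0.73, 0.712 and 0.728 with CM-Vector, compared with 0.742, 0.693 and 0.852 with CM-MLKL. In the annotation they share 35 exon bases, and as close paralogs their counts depend on how reads matching both were assigned, which the sources used here do not state.

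HLA-E, a non-classical heavy chain that shows leader peptides to NKG2A receptors, lies on chromosome 6 (30489467 to 30494205, plus strand). It was at 435.8, 594.7 and 590.4 CPM with CM-Vector and at 599.7, 679 and 664.7 CPM with CM-MLKL. All CM-MLKL libraries lay above all controls, the closest being CM-MLKL 1 and CM-Vector 2. Its log2 fold change was 0.26 (95% interval -0.26 to 0.78, adjusted p = 0.999). Without CM-Vector 1, the low library, it was 0.16.

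HLA-F, a non-classical heavy chain of lower abundance, lies on chromosome 6 (29722775 to 29738528, plus strand). It was at 11.1, 19.2 and 21.4 CPM with CM-Vector and at 16.2, 22.2 and 20.9 CPM with CM-MLKL, and the groups overlapped. The estimate of 0.20 on the log2 scale (95% interval -0.49 to 0.89) turned to -0.00997 without CM-Vector 1. Because the library kit does not mark strand and 28.5% of the exon bases of HLA-F are shared with genes on the opposite strand, including HLA-F-AS1 at 4 to 19 counts, its counts carry an added uncertainty. For HLA-B, 17.8% of exon bases are shared in this way, with a pseudogene at 0 to 6 counts.

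B2M, the light chain without which class I heavy chains do not reach the surface, lies on chromosome 15 (44711487 to 44718877, plus strand). It stood at 4645, 5624 and 5277 CPM with CM-Vector and at 5831, 5316 and 4979 CPM with CM-MLKL. The highest and the second lowest library were both CM-MLKL. Its log2 fold change was 0.0529 (SE 0.233, 95% interval -0.46 to 0.57), and it lay between 0.00404 and 0.13 when any library was left out. Its SD over the 6 libraries, on the log2 scale, was 0.118, the smallest of the 9 genes.

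TAP1, a subunit of the peptide transporter, lies on chromosome 6 (32845209 to 32853978, minus strand). It was at 227.7, 222.6 and 240.0 CPM with CM-Vector and at 283.6, 371.8 and 289.2 CPM with CM-MLKL. The groups were fully separated, and the controls lay within a narrow range. The log2 fold change was 0.45 (SE 0.227, 95% interval -0.0503 to 0.95), with an unadjusted p of 0.073 and an adjusted p of 0.888. It ranged from 0.32 without CM-MLKL 2 to 0.54 without CM-MLKL 1. PSMB8-AS1, which shares 9.49% of the exon bases of TAP1 on the opposite strand, held 2 to 13 counts per library, against 3683 to 5517 for TAP1. HLA-E and TAP1 were the 2 of 9 genes whose CM-MLKL libraries all lay above the controls, where 6.43% of all genes did.

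TAP2, the partner of TAP1, lies near it (chromosome 6, 32821833 to 32838780, minus strand). It was at 33.1, 29.8 and 30.5 CPM with CM-Vector and at 27.1, 34.3 and 26.9 CPM with CM-MLKL. The groups overlapped, and TAP2 was the gene of the 9 with a negative log2 fold change, -0.0817 (95% interval -0.62 to 0.46), which was -0.00629 without CM-Vector 1 and -0.20 without CM-MLKL 2. In the annotation 32.3% of its exon bases lie in AL669918.1 on the same strand, a row with 0 counts in every library. How reads matching both genes were assigned is not given in the sources used here, so the counts of TAP2 may be too low.

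TAPBP, the gene of tapasin, lies on chromosome 6 (33299694 to 33314387, minus strand). It was at 272.4, 259.5 and 338.3 CPM with CM-Vector and at 272.1, 455.9 and 220 CPM with CM-MLKL, so that the CM-MLKL group held both the highest and the lowest library. Its log2 fold change was 0.12 (95% interval -0.54 to 0.78) and turned to -0.23 without CM-MLKL 2. NLRC5, the class I transactivator, lies on chromosome 16 (56989485 to 57083531, plus strand) and was the scarcest of the 9. It was at 5.15, 2.90 and 2.15 CPM with CM-Vector and at 3.97, 5.66 and 3.18 CPM with CM-MLKL. Here CM-Vector 1, the lowest library for all 4 heavy chains and B2M, was the highest control, and the log2 fold change of 0.32 (95% interval -0.63 to 1.27) became 0.78 without it, with an unadjusted p of 0.0494 and an adjusted p of 0.331. In the fit without CM-Vector 1, 1156 genes higher and 992 lower of the 14303 tested had an unadjusted p under 0.05 by edgeR. Without CM-MLKL 2 the log2 fold change of NLRC5 was 0.0693.

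**Figure D2:**
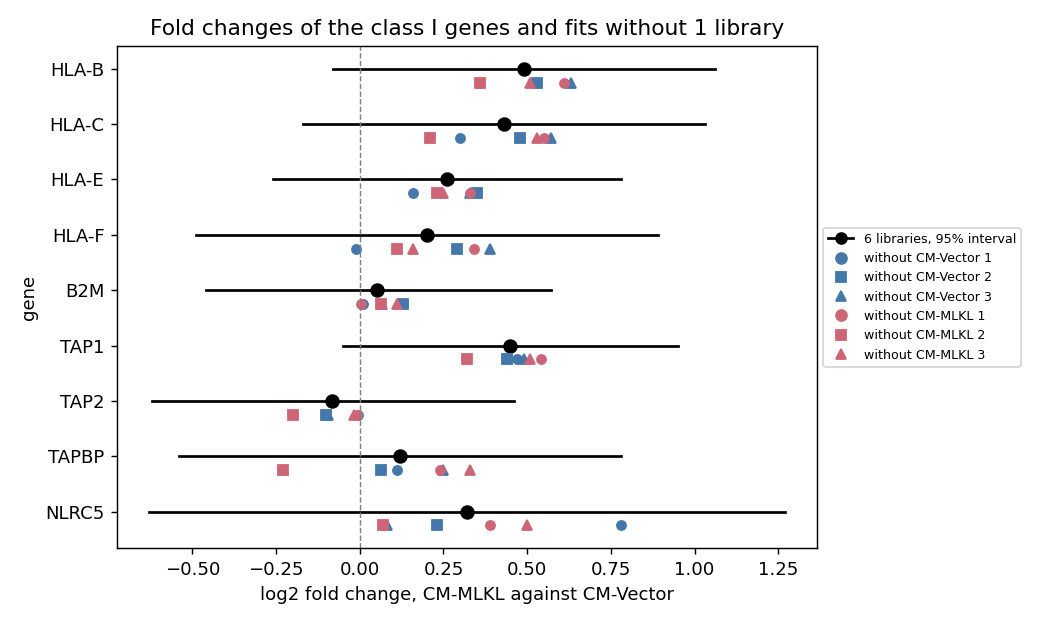
Log2 fold change of each class I gene, CM-MLKL against CM-Vector: black points and lines give the edgeR estimate and its 95% interval over 6 libraries, and the smaller symbols below each give the estimate without 1 library. Every interval includes 0, and symbols of HLA-F and TAPBP lie on both sides of 0.

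Across libraries the levels of the 9 genes did not follow the groups closely. CM-MLKL 2 was the highest library for 8 of the 9 genes, all but B2M, while it was the highest for 20.9% of all genes tested. CM-Vector 1 was the lowest for 5 of the 9, against 27.7% of all genes. Averaged over the 9 genes, log2 CPM relative to each gene's own mean was -0.25, -0.0928 and -0.0304 in CM-Vector 1, 2 and 3, and -0.00254, 0.38 and -0.0102 in CM-MLKL 1, 2 and 3. Thus CM-MLKL 1 and 3 lay close to CM-Vector 3, and CM-MLKL 2 lay farther from its own group than its group lay from CM-Vector 3. The genes outside the pathway lists whose centred pattern was most like this average, with a mean of at least 5 CPM, were EIF5AP4, PHLDA1, CD63 and GNG5. Their root mean square differences were 0.0323, 0.0359, 0.0396 and 0.0408 over the 6 libraries, where the median over 9994 genes was 0.376. The 9 class I genes themselves lay at 0.113 to 0.402 from their own average, so not all of them were closer to it than that median.

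**Figure D3:**
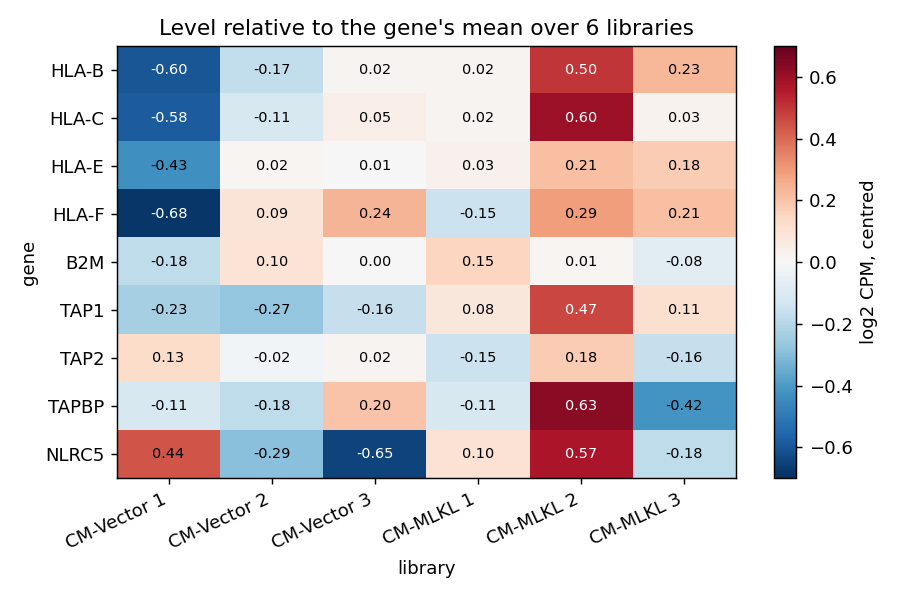
Log2 CPM of each class I gene in each library, relative to that gene's mean over 6 libraries, with the value printed in the cell. The CM-MLKL 2 column is above 0 for all 9 genes, and CM-Vector 1 is below 0 for all but TAP2 and NLRC5.

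Ratios of counts between genes within a library do not depend on library scaling. Of the 36 pairs among the 9 genes, 3 had ratios that did not overlap between the groups, where 13.7% of all pairs of tested genes counted in every library did, so this number is not a result about the class I genes. TAP2 was in each of the 3 pairs, with TAP1, HLA-B and HLA-C. For the transporter, TAP1 had 6.88, 7.47 and 7.87 counts for each count of TAP2 with CM-Vector, as compared to 10.5, 10.8 and 10.8 with CM-MLKL. The pair was picked after all 36 had been seen and carries no test.

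Levels per length set the genes in an order. In CPM per kilobase of exon, B2M was at 852 with CM-Vector and 884 with CM-MLKL, far above HLA-C at 221 and 298, HLA-E at 182 and 218 and HLA-B at 131 and 184. TAPBP at 57.4 and 62.5 and TAP1 at 47.9 and 65.5 were close together. TAP2 at 4.87 and 4.61 and HLA-F at 3.97 and 4.55 were close together, and NLRC5 was lowest at 0.275 and 0.345. With each gene's longest coding transcript as the length, HLA-B passed HLA-E, HLA-F passed TAP2 and TAP1 passed TAPBP with CM-Vector, so these neighbours have no fixed order. TAP1 was about an order of magnitude above its partner TAP2 on either length, with the uncertainty given above for the counts of TAP2.

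Other genes of the pathway were read from the same fit. None of 8 further lists had a gene past the threshold, in either direction, by edgeR. In the peptide-loading and trimming list, 0 of 6 passed and the median log2 fold change was 0.25. PDIA3, the disulfide isomerase of the loading complex, was at 246.3, 408 and 460.1 CPM with CM-Vector and at 491.5, 482.1 and 544.8 CPM with CM-MLKL (log2 fold change 0.45, adjusted p = 0.999). CALR, the chaperone calreticulin, had a log2 fold change of 0.28. Without CM-Vector 1 these values were 0.25 and 0.045. ERAP2, a peptide-trimming aminopeptidase, had 0.37, which ranged from 0.043 without CM-MLKL 3 to 1.06 without CM-Vector 1 (adjusted p = 0.121).

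Among 5 genes of the immunoproteasome, the interferon-inducible proteasome form, and its activator, 0 passed (median 0.0919). PSMB9, which shares a bidirectional promoter with TAP1, was at 105.1, 187 and 187.1 CPM with CM-Vector and at 160.8, 187 and 162.8 CPM with CM-MLKL. Its groups overlapped, unlike those of TAP1. PSME1 and PSME2, subunits of the activator, had log2 fold changes of 0.33 and 0.0943. The constitutive catalytic subunits PSMB5, PSMB6 and PSMB7, of which 0 of 3 passed, had -0.0641, 0.0228 and -0.15.

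Of 10 class I-like molecules 8 were tested and 0 passed (median 0.0439). Among the stress ligands of the receptor NKG2D, ULBP2, MICB and ULBP3 had log2 fold changes of 0.47, 0.39 and 0.41, whereas MICA and ULBP1 had 0.0983 and -0.0105. Without CM-Vector 1 MICB had 0.13, and without CM-Vector 3 ULBP3 had 0.19. HLA-G was at 0 in 3 libraries and reached 0.302 CPM, and CD1D was at 0 in all. Of 14 transcription factors of class I genes 0 passed (median 0.0823). IRF1, an interferon-induced activator, was at 172.5, 248.4 and 241.8 CPM with CM-Vector and at 250.1, 362.8 and 299.2 CPM with CM-MLKL (log2 fold change 0.46, 95% interval -0.10 to 1.02, adjusted p = 0.944). As for TAP1, its groups did not overlap and CM-MLKL 2 was highest. IRF9 and RFX5 had log2 fold changes of 0.69 and -0.28, which were 0.25 and -0.18 without CM-Vector 1.

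Of 7 genes that act on class I through the Polycomb repressor complex, turnover of the protein or, for SPPL3, its accessibility at the surface, 0 passed (median -0.25). SPPL3 is known to favour class I and so differs from the rest. SUZ12, a Polycomb subunit, was at 23.3, 11.5 and 13.3 CPM with CM-Vector and at 9.48, 8.96 and 8.54 CPM with CM-MLKL (log2 fold change -0.83, adjusted p = 0.656), and its partner EED had -0.34. Without CM-Vector 1, the high library for SUZ12, its value was -0.43. SUSD6, which takes part in the lysosomal removal of class I molecules, was at 13.6, 8.16 and 10.6 CPM with CM-Vector and at 17, 21.3 and 16 CPM with CM-MLKL (0.74, adjusted p = 0.67). Of 9 interferon receptors and signalling genes 0 passed (median -0.15). SOCS1, the feedback inhibitor of interferon signalling, was at 3.04, 4.96 and 5.53 CPM with CM-Vector and at 8.62, 14.6 and 7.61 CPM with CM-MLKL. Its groups did not overlap, and the log2 fold change of 1.19 (95% interval 0.34 to 2.03) had an unadjusted p of 0.0106 and an adjusted p of 0.419. JAK1 and TYK2, kinases of the interferon receptors, had log2 fold changes of 0.44 and 0.36. JAK1 had 0.76 without CM-Vector 1 and TYK2 had 0.0729 without CM-MLKL 2.

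Class II genes, which present extracellular peptides and are normally low in epithelial cells, were scarce. Of 10 listed, 6 were tested and 0 passed (median -0.0317). The CM-Vector libraries held 2, 1 and 0 counts of HLA-DQA1, a class II alpha chain, whereas the CM-MLKL libraries held 13, 15 and 11, a ratio of the summed rates of 13.7 with an exact Poisson 95% interval of 4.36 to 69.3 that covers counting error only. HLA-DQA1 reached the minimum count of 10 only in the CM-MLKL libraries, so it was tested through the group where it was high. It was also named for its small p, so its values are a description only. Its adjusted p by edgeR was 0.0802 over the 6 libraries and 0.0454 without CM-Vector 1. It lay between 0.231 and 0.373 when any other library was left out. CD74, the invariant chain of class II molecules, had the opposite sign, at 6.13, 3.81 and 4.98 CPM with CM-Vector and at 1.32, 2.36 and 0.986 CPM with CM-MLKL (log2 fold change -1.68, SE 0.437, adjusted p = 0.214 by edgeR and 0.0281 by DESeq2). HLA-DPA1 had a log2 fold change of -0.92 and an adjusted p of 0.888. HLA-DQA1 and its close paralogs share the uncertainty of read assignment described for HLA-B and HLA-C.

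**Figure D4:**
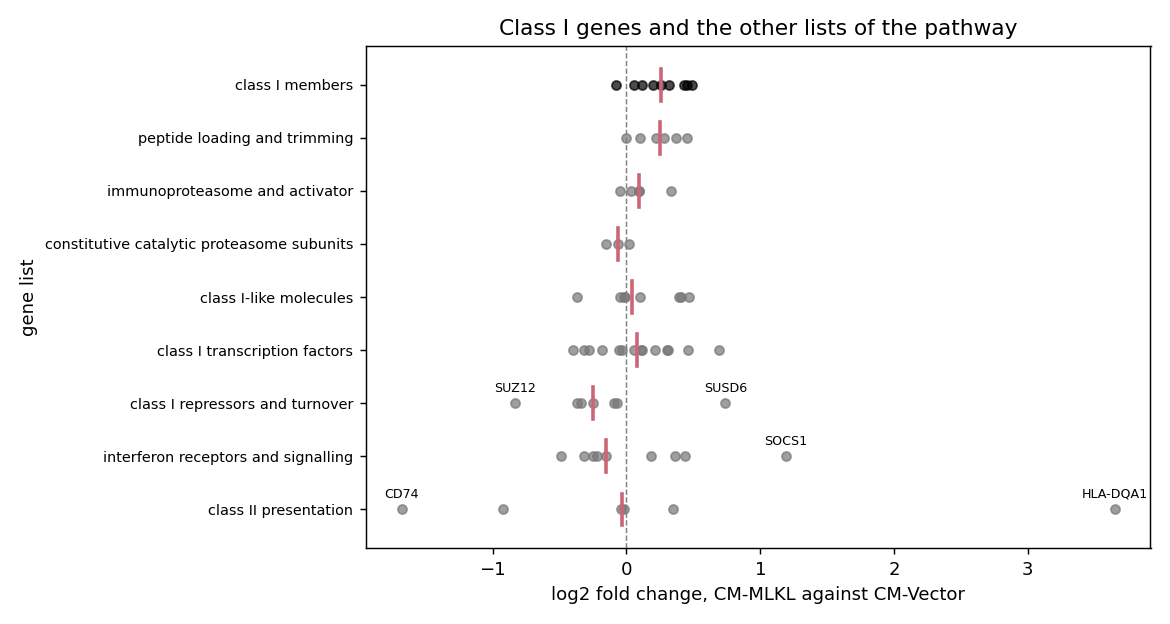
Log2 fold changes, CM-MLKL against CM-Vector, of the class I genes (black) and of the tested genes of 8 other lists (grey), with a red bar at each list's median. Genes with an unadjusted p under 0.05 are labelled and none of the genes shown passed the adjusted threshold in the edgeR test.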

How the data were processed

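Polyadenylated RNA of wild-type PANC-1 cells was sequenced on an Illumina NovaSeq instrument from NEBNext Ultra libraries, which do not mark strand. The authors filtered reads with fastp and assembled mapped reads with StringTie. For the aligner, genome build, counting tool and multi-mapping rule, the sources used here name none. The table deposited by the authors holds raw counts per gene. Of its 58735 names, 58708 matched GENCODE 29 on GRCh38, from which coordinates and lengths were taken.

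The analysis ran in R 4.3.3. Low genes were removed with filterByExpr of edgeR 4.0.16 (minimum count 10, minimum total 15), scaled by TMM and compared with the edgeR quasi-likelihood test, two-sided, group as the only term, with Benjamini-Hochberg adjustment over 14046 genes and a threshold of 0.05. The authors used DESeq2, run here as an alternative (DESeq2 1.42.0), as were limma-voom (limma 3.58.1), other scalings and filters, a replicate block and leaving out each library. Levels are TMM-scaled CPM, and centred levels and library correlations used log2(CPM + 0.5). Where no read was counted, the upper limit is 3 counts, which is 0.168 to 0.189 CPM by library before TMM scaling. This limit covers counting error only. The labels call the samples replicates and the methods describe independent experiments; p-values measure the spread between these 3 libraries per group.

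The members and gene lists were chosen with earlier results of these data known. All 9 members are named; from each other list, genes past the threshold and up to 3 further ones with the smallest p are named, as are the 4 most similar genes. HLA-G, CD1D, MICA, ULBP1 and SPPL3, the marker genes and PSMB8-AS1, HLA-F-AS1 and AL669918.1 were named outside this rule.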

Additional observations from a re-analysis of the deposited data

How the results depend on the processing

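None of the 9 class I genes passed the threshold in any of the 13 alternative settings, although the 5 CPM filter left NLRC5 untested. The number of all genes called moved from 72 to 207 with DESeq2, 249 with no filter on low counts and 155 with the replicate block, and ranged from 18 to 314 when a library was left out, the lowest without CM-MLKL 2 and the highest without CM-Vector 1. The log2 fold change turned its sign for HLA-F (-0.00997 without CM-Vector 1, within -0.00997 to 0.39 over the fits without a library) and TAPBP (-0.23 without CM-MLKL 2, within -0.23 to 0.33). It also turned for PSME2 (-0.023 without CM-MLKL 3, within -0.023 to 0.23), PSMB9 (-0.11 without CM-Vector 1, within -0.11 to 0.23), PSMB7 (0.00427 without CM-MLKL 2, within -0.23 to 0.00427) and PSMB6 (-0.000701 with the 5 CPM filter, -0.15 without CM-Vector 1 and -0.0701 without CM-MLKL 2, within -0.15 to 0.19). In the class II list, 0 genes were called at first, 1 by DESeq2 (CD74, adjusted p = 0.0281), 2 with no filter (HLA-DQA1, 0.0237, and CD74, 0.0453), 1 with the replicate block (HLA-DQA1, 0.00793), and 0 to 1 when a library was left out. HLA-DQA1 was named for its small p and reached the minimum count only in the CM-MLKL libraries, so its calls are a description only. The causes of the changes between settings were not tested. Deviations of same-numbered libraries from their group means correlated at 0.192, 0.181 and -0.343, so the numbers were not taken to pair the samples. Of the 9 genes, NLRC5 had the lowest counts, 35 to 105 per library, and the widest interval.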
